A study of Populus euphratica with 12 samples.

Results

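The 440 transcripts described here are long non-coding RNAs (lncRNAs) of *Populus euphratica* that the authors assembled from their own leaf reads and that the annotation of the genome does not hold. They are the transcripts of the lncRNA tables whose identifier begins with TCONS_, without those among the 30 lncRNAs of highest mean abundance. The tables listed 4460 lncRNAs, of which 442 were assembled and 4018 annotated, and 2 assembled lncRNAs were left out by the rule on the 30 highest. TCONS_00056930, an intergenic transcript, ranked 17 with a mean of 435 FPKM (read fragments scaled by transcript length and library size), and TCONS_00060588 ranked 23 with 288 FPKM. The assembled lncRNA just inside the rule, TCONS_00060587, ranked 37 with 152 FPKM and came from the same locus as TCONS_00060588, so that the 2 transcripts share reads. Because the set was built from the 12 libraries examined here, its detection in them follows in part from how it was made.

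*P. euphratica* is a desert poplar whose leaves differ in shape with the age of the tree, which is called heterophylly. Juvenile leaves were sampled as 4 groups with 3 libraries each. Linear leaves (Li) came from trees of 0 to 3 years and lanceolate leaves (La) from trees of 4 to 6 years. Ovate leaves (Ov) came from trees of 8 to 12 years, and broad-ovate leaves (Bo) from trees over 20 years old. All trees grew at 1 site and no treatment was applied. Leaf shape and tree age moved together over the groups and cannot be told apart. The study calls the 3 samples of a group biological replicates, the number of trees behind each is not given in the sources used here, and p-values measure the spread between these samples. Libraries carry the group name and a number, as in Li1.

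Long non-coding RNAs are transcripts that are spliced and processed much like messenger RNAs but carry no recognised coding sequence. In plants some are known to act on the gene they overlap. In *Arabidopsis thaliana*, COOLAIR runs on the strand opposite the flowering repressor FLC and COLDAIR starts within an intron of that gene. Other lncRNAs lie between genes. How a transcript lies relative to annotated genes is therefore the first property by which assembled lncRNAs are sorted.

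The deposited tables give each assembled lncRNA a class code for this position, a strand and a span on a scaffold of the PopEup_1.0 assembly. Of the 440, 274 (62.3%) were intergenic (class u). Another 78 (17.7%) overlapped an exon of an annotated transcript on the opposite strand (class x), 47 (10.7%) lay within an annotated intron (class i) and 41 (9.32%) shared exonic sequence with an annotated transcript in some other way (class o). The tables name the annotated transcript for the 166 of classes x, i and o. They do not name the flanking genes of the intergenic class, which are not analysed here.

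These lncRNAs were short transcripts of few exons. Their length ranged between 203 and 5276 bases with a median of 801, above the minimum of 200 bases that the methods state. The shortest by median were the intronic class, at 430 bases, and the longest the opposite-strand class, at 1130.5. Exactly 2 exons, the fewest the authors kept, were found in 347 (78.9%), 3 exons in 71 and 4 or more in 22, with a highest number of 6. The intronic class was the one with the largest share of 2-exon transcripts, 91.5%, against 75.6% to 78.1% in the other classes. On the genome the median span was 1437.5 bases, of which a median of 395.5 was intron, and the largest span was 47671 bases. The plus strand held 193 and the minus strand 247. They lay on 229 scaffolds, 133 of which had 1 each, and the most on a single scaffold was 12, on NW_011499856.1.

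The 440 transcripts came from 374 assembled loci. In 324 loci there was 1 transcript, and the other 50 loci held 116 transcripts, between 2 and 4 each. Transcripts of 1 locus share reads, which the authors' software divided between them, and a transcript of such a locus is less certain than a transcript alone. The most abundant transcript of these 50 loci took a median of 62.9% of the summed mean FPKM of its locus. There were 5 overlapping pairs of transcripts from different loci, 4 on the same strand and 1 on opposite strands. Spans of circular RNAs in the deposited circRNA tables overlapped 25 of the 440, 22 of them on the same strand. The overlaps were found in 11 of 41 class o transcripts, 7 of 47 intronic, 5 of 274 intergenic and 2 of 78 opposite-strand ones. TCONS_00039386, named after its values were seen (scaffold NW_011499941.1, 333388 to 334728, plus strand) lay wholly within circRNA_0636, a circular RNA that the authors' table types as intergenic. No reads were available here to tell the linear from the circular product.

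Nearly all assembled lncRNAs had a value above 0 in most libraries. Between 381 (Li2, Li3 and La3) and 398 (Li1) of the 440 were above 0 FPKM in a library, or 86.6% to 90.5%, against 2102 to 2225 (52.7% to 55.8%) of the 3990 annotated lncRNAs outside the 30 highest. Values above 0 in all 12 libraries were listed for 276 (62.7%) of the assembled and 1594 (39.9%) of the annotated lncRNAs. Only 2 assembled lncRNAs (0.455%) were listed at 0 throughout, against 28.8% of the annotated ones, and 1 was above 0 in a single library. The 2 were TCONS_00029597 and TCONS_00066222, short opposite-strand transcripts of 210 and 206 bases whose spans consisted mostly of intron. A value of 0 does not show that a transcript was absent, since reads are divided between transcripts and the depth behind FPKM is unknown. Of the 5280 values 613 (11.6%) were 0 and a further 240 (4.55%), in 73 transcripts, lay between 0 and 0.001 FPKM.

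With a floor of 0.1 FPKM, which removes these near-zero estimates, the number detected differed somewhat between leaf groups. The Li libraries had 345, 328 and 318 of the 440 at or above the floor. In La the numbers were 342, 347 and 338, in Ov 347, 353 and 344, and in Bo 354, 363 and 351. All 3 Bo libraries thus lay above all Li and La libraries, while Bo and Ov overlapped, as did Ov, La and Li. Averages per group (± SD, n = 3 each) came to 330 ± 13.7 for Li, 342 ± 4.51 for La, 348 ± 4.58 for Ov and 356 ± 6.25 for Bo. The median FPKM over the 440 was 0.784, 0.515 and 0.527 in the Li libraries, and 0.695, 0.714 and 0.742 in La. It was 0.651, 0.807 and 0.927 in Ov, and 0.978, 0.887 and 1.18 in Bo. Li1 stood apart from the other 2 Li libraries on both measures. Of the annotated lncRNAs counted above, 38.0%, 34.6% and 33.0% were at or above the floor in the Li libraries. Their shares were 35.4% to 35.9% for La, 35.6% to 37.6% for Ov and 37.2% to 38.0% for Bo. Here too all Bo libraries lay above Li2, Li3 and the La libraries, while Li1 and Ov3 fell within the Bo range. Higher detection in Bo was thus not confined to the assembled set. These numbers are descriptions with no test, and the depth behind them is unknown.

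**Figure D1:**
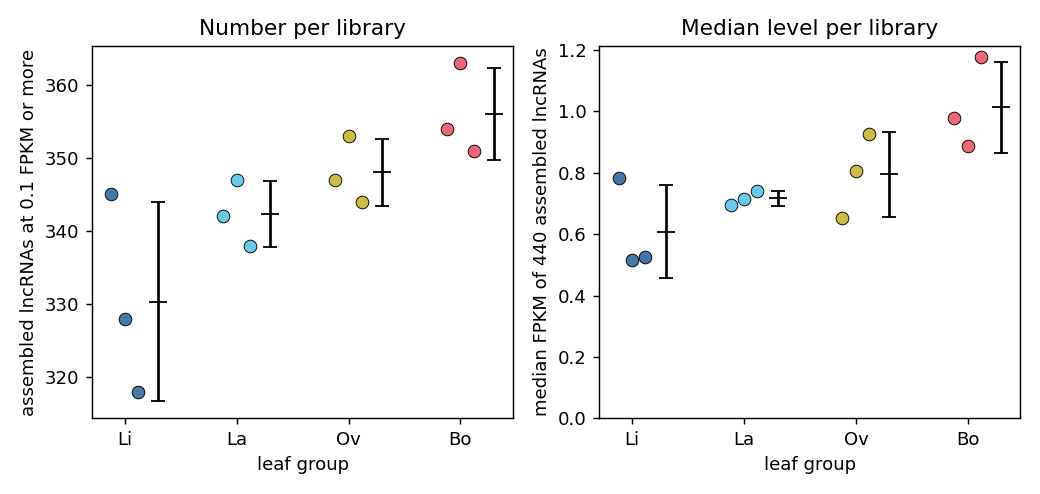
Left, number of the 440 assembled lncRNAs at 0.1 FPKM or more in each library (y axis, not starting at 0). Right, their median FPKM in each library. Points are libraries by leaf group (x axis), and the bar beside them is the mean with SD (n = 3). The Bo libraries had 351 to 363 at or above the floor and the Li libraries 318 to 345.

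Few assembled lncRNAs had values above 0 in libraries of one leaf shape alone. There were 3 such cases in Li and 1 in Ov, with none in La or Bo. The Ov case was TCONS_00058598, an intergenic transcript of 580 bases (scaffold NW_011500202.1, 37056 to 38012, plus strand). It had 0.837, 0.137 and 1.21 FPKM in the Ov libraries and was listed at 0 in the other 9 libraries. Its mean was under the 0.5 FPKM needed to be tested. No transcript of the Li cases was above 0 in all 3 Li libraries.

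The assembled lncRNAs were of low abundance but mostly above the annotated lncRNAs. The median of their mean FPKM over 12 libraries was 0.965, with quartiles of 0.404 and 2.56, and the highest was 152. The annotated lncRNAs outside the 30 highest had a median of 0.0511, or 0.235 among those above 0 anywhere, and the mRNAs a median of 1.75. A mean of at least 1 FPKM was reached by 215 assembled lncRNAs (48.9%) against 19.0% of the annotated ones. At 10 FPKM or more the shares were 7.05% and 4.94%. The assembled set was selected in these libraries and the annotated one was not, and the difference was not tested. The 10 most abundant of the 440 held 36.6% of the summed mean FPKM and the 100 most abundant 81.2%. FPKM is scaled by length, but how far this makes levels comparable between transcripts of different length or with shared reads was not tested.

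Level differed between the classes. The intronic class had the highest median of mean FPKM, 2.50, followed by class o with 2.07. The intergenic class had 0.847 and the opposite-strand class 0.483. The quartiles of the intronic class, 1.33 and 5.83, lay above the median of the intergenic class, and those of the opposite-strand class were 0.238 and 1.30. Transcripts with more exons had lower levels, at a median of 1.17 FPKM for 2 exons, 0.686 for 3 and 0.501 for 4 or more. These are descriptions with no test.

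**Figure D2:**
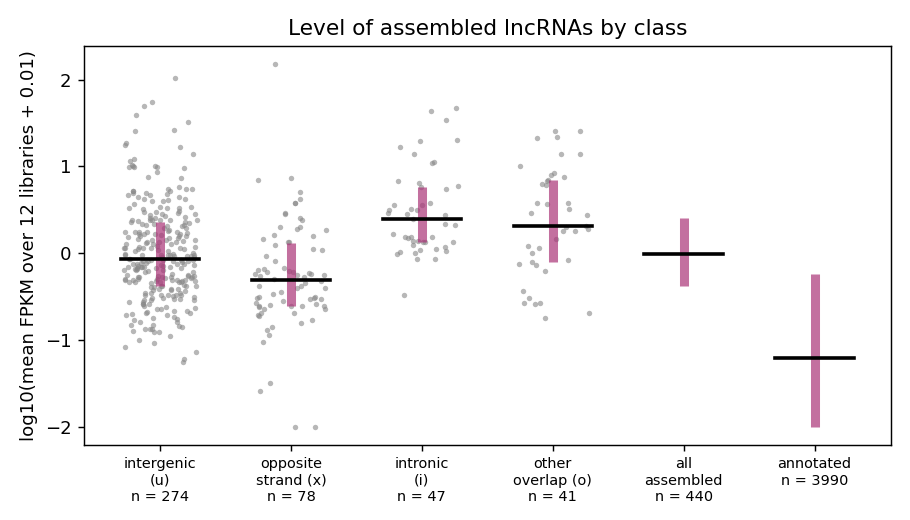
Mean FPKM over 12 libraries on a log10 scale after adding 0.01 (y axis), for the assembled lncRNAs of each class, all assembled lncRNAs and the annotated lncRNAs outside the 30 highest (x axis). Grey points are transcripts, black lines medians and coloured bars the quartiles. The intronic class has the highest median, 2.50 FPKM, and the annotated lncRNAs the lowest, 0.0511 FPKM.

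The 5 most abundant had values above 0 in every library. TCONS_00060587 (class x, scaffold NW_011500271.1, 97515 to 100211, plus strand) ranged between 102 and 225 FPKM with a mean of 152. It runs opposite LOC105112984, whose transcript XM_011008939.1 averaged 0.487 FPKM. TCONS_00030918 (class u, scaffold NW_011499899.1, 778414 to 779821, plus strand) had a mean of 105 FPKM and ranged between 71.1 in Li1 and 192 in La2. TCONS_00045850 (class u) averaged 55.5 FPKM, and TCONS_00034115 (class u) ranged between 30.9 in Bo2 and 79.7 in Li3. TCONS_00044069 (class i) averaged 47.2 FPKM and was uneven, with 135 in La3 and 13.5 in La2. It lies in an intron of LOC105139516, whose mRNA was also highest in La3, at 371 FPKM, but had 174 in La2. Over the 12 libraries Pearson's r of the 2 was 0.637 (permutation adjusted p = 0.132), and 0.241 without La3 and Bo1. None of the 5 passed a test between groups, and their adjusted p in the F test lay between 0.407 and 0.915.

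The steadiest of the tested assembled lncRNAs was TCONS_00068795 (class u, scaffold NW_011501427.1, 21928 to 25348, plus strand), with a coefficient of variation of 0.149 over the 12 libraries. It had 4.49, 4.33 and 4.10 FPKM in Li and 4.40, 4.54 and 3.99 in La. In Ov it had 3.51, 3.81 and 4.16 and in Bo 3.73, 4.29 and 2.39, with Bo3 the lowest of all. TCONS_00000666 (class x) followed with a coefficient of 0.182 and TCONS_00070087 (class u) with 0.203, at a mean of 32.4 FPKM. TCONS_00024970 (class i), at 34.6 FPKM, and TCONS_00044244 (class u) had 0.206 and 0.258. Over all tested assembled lncRNAs the median coefficient was 0.715 across the 12 libraries, and within a group of 3 libraries it was lowest for Bo (0.509) and highest for Ov (0.642), with 0.584 for Li and 0.585 for La.

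At the other end were transcripts seen in essentially 1 library. At least 50% of the summed FPKM lay in a single library for 15 of the 304 tested assembled lncRNAs (4.93%), against 2.40% of the tested annotated ones. The 15 were short, with a median of 360 bases against 786 for the other tested ones, and 11 had their highest value in a Bo library. TCONS_00057471 (class i, 264 bases) had 45.8 FPKM in Bo3 and was at 0 or under 0.001 FPKM in the other 11 libraries. TCONS_00062440 (class u, 286 bases) had 6.69 FPKM in Li2 alone. TCONS_00054912 (class u, 240 bases) had 18.8 FPKM in Bo2 and at most 0.0011 elsewhere. TCONS_00040709 (class x) had 5.58 FPKM in Bo1 and 0.972 in Bo2, and TCONS_00016813 (class u) 5.09 in Bo1 and 1.85 in Li1. With 3 libraries per group, values of this kind carry no difference between groups.

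Differences between leaf groups were tested for lncRNAs with a mean of at least 0.5 FPKM over the 12 libraries. This kept 1391 lncRNAs, among them 304 of the 440 (69.1%), namely 186 intergenic, 38 opposite-strand, 46 intronic and 34 of class o. The other 136 were too low to be tested. Of the 304, 196 had a mean of at least 0.5 FPKM in all 4 groups and 19 in 1 group alone, and these 19 passed the filter only through the group in which they were high. The test was limma on log2(FPKM + 1) with p-values adjusted over the 1391 lncRNAs (Benjamini-Hochberg), and a lncRNA was called at an adjusted p under 0.05. Changes are given on this log2 scale, which understates those of low transcripts.

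For Bo against Li, 4 of the 304 were called, 2 higher and 2 lower in Bo. That is 1.32% of those tested, beside 1.01% of all 1391 lncRNAs, with 0.719% called higher and 0.288% called lower. The moderated F test over the 4 groups called 2, or 0.658% beside a background of 0.503%. No assembled lncRNA was called by limma in the other 5 pairs. There the share over all lncRNAs was 0.0719% for La/Li and 0% for both Ov/Li and Ov/La. It was 0.144% for Bo/La, and Bo/Ov had 0.216%. These shares lie near the background. The count for Bo/Li also hung on single libraries. It was 0 without Li2, 0 without Bo2, 1 without Li3 and 1 without Bo1, and on the other side 7 without Li1 (2.30%, background 2.16%) and 11 without Bo3 (3.62%, background 2.23%). No call was left when lncRNAs of low level were kept in the test, or when Bo and Li alone were fitted. The F test called 0 without Li2, Li3, La2, La3, Ov1, Ov3, Bo1 or Bo2, but 5 without Li1 (1.64%, background 1.51%) and 6 without Bo3 (1.97%, background 1.29%). Of the pairs with no call, Bo/La had 7 (2.30%, background 1.51%) and Bo/Ov 5 (1.64%, background 0.935%) without Bo3. Without Li1, La/Li had 4 (1.32%, background 1.22%) and Ov/Li 5 (1.64%, background 1.44%).

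The same numbered La and Ov libraries deviated together for numbers 2 and 3, and less so for number 1, as given with the methods. Ov1 was closer to La3 (Spearman's correlation 0.622) than to La1 (0.562). This pairing was read from these same libraries. With the replicate number as a block for La and Ov, 14 assembled lncRNAs (4.61%) were called for Bo/Li, beside 3.16% of all lncRNAs, among them all 4 of the fit without it. That fit also called 6 for Ov/Li (1.97%, background 2.3%), 1 for Bo/La (0.329%, background 0.359%) and 4 in the F test (1.32%, background 1.58%).

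Without correction for the number of tests, taking each lncRNA with an unadjusted p under 0.05, the counts were larger. For Bo/Li 83 assembled lncRNAs (27.3%) passed, beside 20.1% of all lncRNAs. Of these 68 were higher in Bo (22.4%, background 14.7%) and 15 lower (4.93%, background 5.39%). For Ov/Li 42 passed (background 13.9%), for Bo/La 42 (background 11.4%), for Bo/Ov 39 (background 11.2%) and for La/Li 23 (background 9.2%). The fewest, 12, passed for Ov/La, the pair with the lowest background as well, 2.88%. The F test passed 59 at this level (background 15.3%). The shares for La/Li (7.57%), Ov/Li (13.8%) and Ov/La (3.95%) lay nearer to their background than that for Bo/Li did. For the opposite-strand class 11 of 38 tested passed for Bo/Li, for the intronic class 11 of 46, for class o 10 of 34 and for the intergenic class 51 of 186. All 11 of the intronic class were higher in Bo, and 43 of the 51 of the intergenic class were.

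More assembled lncRNAs had their highest group mean in Bo than in any other group. Bo was highest for 126 of the 304 (41.4%), Li for 66, Ov for 65 and La for 47. Among all 1391 tested lncRNAs Bo was highest for 38.8%. Li was the lowest group for 129 (42.4%), beside 38.4% of all. In the order Li, La, Ov, Bo the group mean was higher at every step for 49 (16.1%, background 13.2%) and lower at every step for 16 (5.26%, background 4.67%). All 3 Bo values lay above all 3 Li values for 74 (24.3%, background 19.1%), and all 3 lay below for 21 (6.91%, background 9.2%). By class, Bo was the highest group for 77 of 186 intergenic, 15 of 38 opposite-strand, 24 of 46 intronic and 10 of 34 class o transcripts.

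This tilt was shared by the lncRNAs as a whole. The median Bo/Li change was 0.31 for the 304 and 0.22 for all 1391, and 196 of the 304 (64.5%) had a positive sign beside 62.0% of all. When each library was scaled by the upper quartile of its mRNA FPKM, the medians were 0.27 and 0.17 and 188 of the 304 (61.8%) were positive. By class the median change was 0.30 for intergenic, 0.26 for opposite-strand, 0.50 for intronic and 0.21 for class o transcripts. Leaving out 1 library moved the median of the 304 between 0.22 (without Bo3) and 0.39 (without Li1). In the libraries of these groups, fewer cells of a type and less RNA per cell cannot be told apart.

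**Figure D3:**
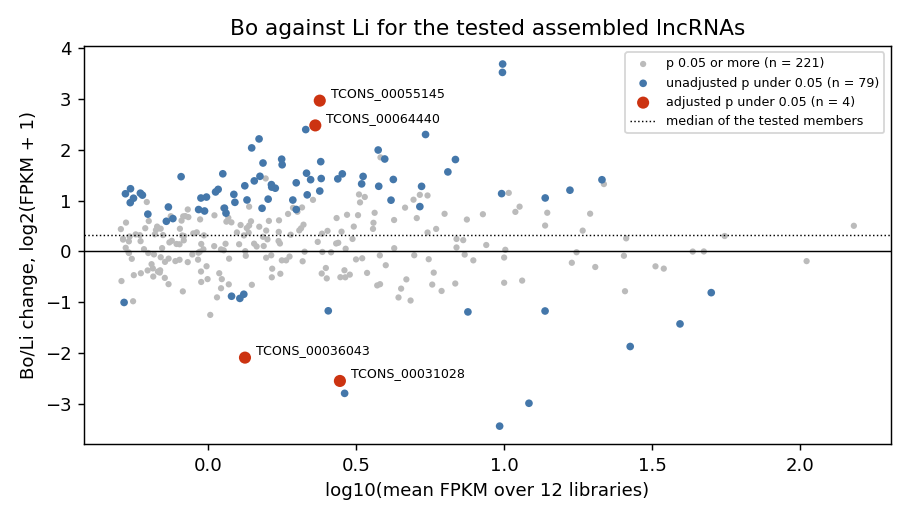
Bo/Li change on the log2(FPKM + 1) scale (y axis) against the log10 of mean FPKM (x axis) for the 304 tested assembled lncRNAs. Red points are the 4 with an adjusted p under 0.05, blue points those with only an unadjusted p under 0.05. The dotted line is the median of the 304, 0.31, and more blue points lie above 0 than below it.

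The lncRNA with the clearest gain in broad-ovate leaves was TCONS_00064440, an intergenic transcript of 585 bases in 2 exons (scaffold NW_011500517.1, 93326 to 96210, minus strand). It had 8.47, 11.2 and 2.85 FPKM in the Bo libraries, against 0.927, 0.210 and 0.102 in Li. La had 0.519, 0.683 and 0.473 and Ov 1.07, 0.713 and 0.384. Every Bo value lay above all 9 others, which stayed at about 1 FPKM or below. The Bo/Li change was 2.48 ± 0.41 (SE; limma, adjusted p = 0.0163) and the adjusted p of the F test was 0.0482. Its group means rose at every step, the pattern that the study calls OLI, opposite to the leaf index of length over width. At an adjusted p under 0.05 for Bo/Li it was the 1 assembled lncRNA of this pattern (background 0.359%), while 5 had it with the block for La and Ov (background 0.935%) and 31 at an unadjusted p under 0.05 (background 6.54%). The change against La was 2.29 (adjusted p = 0.0574) and against Ov 2.17 (adjusted p = 0.0792). Leaving out Li2, Li3, Bo1 or Bo2 raised the adjusted p for Bo/Li above 0.05, at most to 0.118.

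TCONS_00055145 was the other lncRNA called higher in Bo. It is an intergenic transcript of 349 bases in 3 exons (scaffold NW_011500116.1, 205049 to 211445, minus strand). Its values were 4.91, 4.06 and 14.9 FPKM in Bo, while it was listed at 0 or under 0.0001 FPKM in every Li and La library. In Ov it reached 4.67 FPKM in Ov2 and was at or near 0 in Ov1 and Ov3. The change was 2.97 ± 0.62 (SE), with an adjusted p of 0.0491 by limma. This call was at the threshold and was lost when any one of 10 libraries was left out (Li1, Li2, Li3, La1, La2, La3, Ov1, Bo1, Bo2 or Bo3), at an adjusted p of up to 0.195. Its locus holds 2 more assembled transcripts that share its reads. TCONS_00055146 had 0.497, 0.269 and 3.69 FPKM in Bo, against 0.329, 0.666 and 0.702 in Li, and these overlap. With the transcripts of the locus summed the change was 2.79 (adjusted p = 0.064).

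Of the 2 called lower in Bo, TCONS_00036043 had its highest values in linear leaves. Its group mean reached 0.5 FPKM in Li alone, so it passed the filter only through the group in which it was high. Its p-values below are therefore no independent support for that pattern. It is a class x transcript of 524 bases on the strand opposite LOC105135304 (scaffold NW_011499922.1, 273611 to 293616, plus strand). It had 0.530, 0.138 and under 0.001 FPKM in Bo, against 7.89, 3.02 and 2.76 in Li. In La it had 0.499, 0.253 and 0.0425 and in Ov 0.416, 0.420 and under 0.001, so that all 9 older libraries lay below the Li values. The Bo/Li change was -2.09 ± 0.35 (SE; limma, adjusted p = 0.0163), and the change in Ov and La against Li was close to it, -2.02 (adjusted p = 0.0777) and -2.03 (adjusted p = 0.0517). The F test gave an adjusted p of 0.0469. Without Li2 or Bo2 the adjusted p for Bo/Li was 0.0696 or 0.0814. With a pseudocount of 0.1 it was 0.0552. The mRNA on the other strand, XM_011040124.1, averaged 4.60 FPKM in Bo, against 11.1 in Li, with 5.88 in La and 8.37 in Ov. The lowest Li value of that mRNA, 6.27 in Li1, lay above the highest Bo value, 5.50 in Bo3.

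TCONS_00031028 was the stepwise counterpart. It is a class x transcript of 965 bases (scaffold NW_011499899.1, 857388 to 860265, minus strand) opposite LOC105132528. The Bo libraries had 0.406, 0.357 and 0.0687 FPKM, against 2.30, 10.7 and 9.58 in Li. La had 1.35, 1.88 and 2.33 and Ov 1.90, 1.47 and 1.09, values that lie between those of Bo and Li apart from an overlap with Li1. The Bo/Li change was -2.55 ± 0.43 (SE; limma, adjusted p = 0.0163), while the F test did not call it (adjusted p = 0.0845). Its means fell at every step, the CLI pattern that follows the leaf index. At an adjusted p under 0.05 for Bo/Li it was the 1 assembled lncRNA of this pattern (background 0.216%), while 6 had it at an unadjusted p under 0.05 (background 2.01%). The adjusted p exceeded 0.05 without Li2, Li3, Bo1 or Bo2, at most 0.118. The mRNA opposite to it, XM_011036092.1, was itself low, at 0.00762 FPKM on average in Bo, against 0.356 in Li.

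Some further transcripts had the next smallest p-values in the F test without being called. TCONS_00057022, in an intron of LOC105111002 (scaffold NW_011500152.1, 298907 to 300890, minus strand), stood out in ovate leaves. It had 46.6, 38.8 and 26.7 FPKM in Ov, against 7.18, 2.08 and 8.05 in Li, 7.58, 11.3 and 12.2 in La and 11.04, 12.8 and 15.8 in Bo, so that no other library reached the Ov values. The Ov/Li change was 2.61 ± 0.43 (SE; limma, adjusted p = 0.0777) and the F test gave an adjusted p of 0.067. This locus holds 4 assembled transcripts, all within introns of that gene. TCONS_00057021, which shares most of the span, had under 0.001 FPKM in Ov1, 13.7 in Ov2 and 51.0 in Ov3. The split between these overlapping transcripts thus differed from library to library. The Ov peak is therefore given for TCONS_00057022 alone and is not shown for the locus. With the transcripts of each locus summed, no assembled entry was called for Ov/Li. The F test of that fit called TCONS_00036043 and TCONS_00064440 and no other assembled entry. The host mRNA did not share the Ov peak of TCONS_00057022. Its group means were 17.0 (Li), 23.3 (La), 31.5 (Ov) and 38.8 FPKM (Bo), with Bo the highest. For Ov1, the library with the most TCONS_00057022, the host had 17.8 FPKM. Pearson's r between them was 0.442 over all libraries (permutation adjusted p = 0.367).

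TCONS_00052792 (class u, 406 bases, scaffold NW_011500076.1, 238299 to 238789, plus strand) behaved like TCONS_00064440. It had 6.05, 9.77 and 1.14 FPKM in Bo, against 0.286, 0.271 and 0 in Li, and at most 0.295 in any La or Ov library. Its group mean reached 0.5 FPKM in Bo alone, so it too passed the filter only through the group in which it was high. Its Bo/Li change of 2.21 ± 0.47 (SE) had an adjusted p of 0.0508 by limma, just above the threshold and so not called. Without Bo3 the adjusted p of TCONS_00052792 by limma was 2.5e-04, but it was 0.149 without Bo2, 0.192 without Li2 and 0.254 without Li3. TCONS_00028453 (class u, scaffold NW_011499891.1, 41653 to 43086, minus strand) was highest in linear leaves and lowest in the middle groups. It had 3.13, 1.63 and 1.497 FPKM in Bo, against 2.79, 5.09 and 12.3 in Li, with 0.322 to 1.19 in La and 0.259 to 0.984 in Ov. The Ov/Li change was -2.14 (adjusted p = 0.0936). TCONS_00029689 (class i), by contrast, was lowest in La, at 0, 4.44 and 1.08 FPKM, with 6.70 to 9.97 in Li, 13.3 to 20.6 in Ov and 7.09 to 33.1 in Bo.

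**Figure D4:**
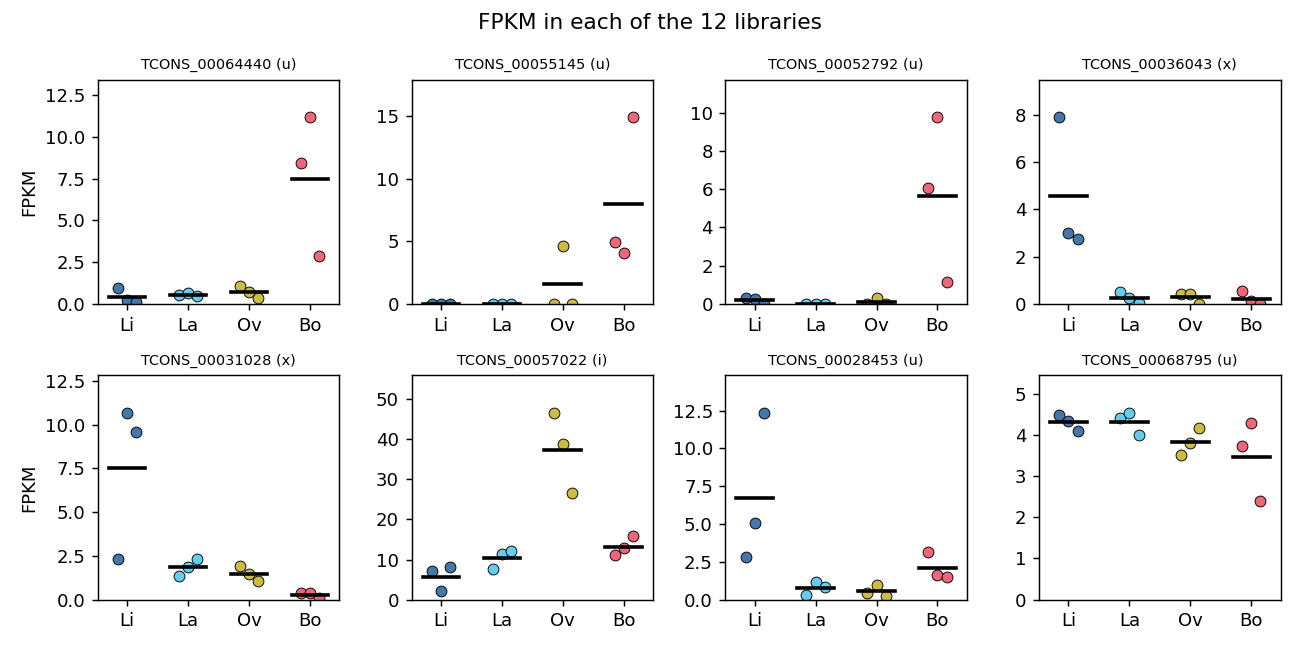
FPKM (y axis) of 8 assembled lncRNAs in each of the 12 libraries by leaf group (x axis). Points are libraries and lines group means, and the letter after each name is the class. TCONS_00064440, TCONS_00055145 and TCONS_00052792 are highest in Bo, TCONS_00036043 and TCONS_00031028 in Li, and TCONS_00057022 in Ov, while TCONS_00068795 varies least.

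Large changes were often uneven between replicates. TCONS_00069002 (class u, 364 bases) had the largest positive change among transcripts whose groups did not overlap, with 12.1, 19.5 and 52.8 FPKM in Bo, against 1.16, under 0.001 and 3.42 in Li. Its change of 3.52 ± 1.08 (SE) was not called by limma (adjusted p = 0.123), and Ov2 reached 17.0 FPKM. TCONS_00050009 (class i, in LOC105142723) had 6.20, 8.76 and 24.6 FPKM in Bo, against 2.07, 1.58 and 0.903 in Li (change 2.30, adjusted p = 0.0922). Its host mRNA was level, at 144 FPKM in Bo, against 148 in Li. TCONS_00070591 (class i) and TCONS_00005067 (class o) had changes of 1.74 (adjusted p = 0.0711) and 1.43 (adjusted p = 0.0922). The largest 2 changes in the other direction belonged to a locus of 3 intergenic transcripts on scaffold NW_011499856.1. In TCONS_00013682 the values were 0.0146, under 0.001 and 4.26 FPKM in Bo, against 13.7, 19.3 and 21.8 in Li, with 30.3 in Ov1 (change -3.44 ± 0.77 SE, adjusted p = 0.0711). TCONS_00013681 and TCONS_00013683 had changes of -2.99 (adjusted p = 0.199) and -1.87 (adjusted p = 0.114). The 3 summed gave -2.44 with an adjusted p of 0.0901. Without Bo3 the adjusted p of TCONS_00013682 by limma was 0.0158, and without Ov1 it was 0.0316, but it was 0.218 without Li2 and 0.279 without Li3. With the block for La and Ov, TCONS_00069002, TCONS_00050009, TCONS_00070591 and TCONS_00013682 each had an adjusted p of 0.0476. Leaving out 1 library gave an adjusted p of up to 0.361 for TCONS_00069002, 0.294 for TCONS_00050009 and 0.279 for TCONS_00070591.

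Summing the transcripts of each locus before the test, an alternative chosen after the data had been seen, also gave 4 calls for Bo/Li among single transcripts, 3 of them shared with the 4 above. In that fit 5 of 281 assembled entries were called (1.78%), among 15 calls over all lncRNAs. The remaining call was 1 locus. Its transcripts, named here after their values were seen, are TCONS_00019115, TCONS_00019119 and TCONS_00019120 on scaffold NW_011499866.1, and their sum changed by 1.53 ± 0.28 (SE; limma, adjusted p = 0.0215). The main transcript, TCONS_00019119, is the longest of the 440, with 5276 bases. It had 1.66, 1.21 and 2.37 FPKM in Bo, against 0.334, 0.305 and 0.282 in Li, with 0.481 to 0.813 in La and 0.718 to 1.32 in Ov. All 3 Bo values lay above all Li and La values, and those of Li below all others.

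The 304 ordered the libraries only partly by leaf group. Spearman's correlation of FPKM between 2 libraries averaged 0.636 within a group (12 pairs) and 0.555 between groups (54 pairs), and these pairs share libraries and transcripts. The closest pairs of all were Ov3 with La3 (0.837) and Ov2 with La2 (0.830), ahead of Bo2 with Bo1 (0.819). The least alike were Bo3 and Li2 (0.379). Between groups, Bo with Li averaged 0.475 and Ov with La 0.632. Over the tested annotated lncRNAs the same averages were 0.723 within and 0.674 between groups, so that the assembled set agreed less between libraries.

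The classes x, i and o can be set beside the annotated transcript that they overlap. All 166 named partners were in the mRNA tables, as 144 transcripts. The assembled lncRNA had the higher mean FPKM in 63 pairs (38.0%), which were 24 of 41 for class o (58.5%), 28 of 78 for class x (35.9%) and 11 of 47 for class i (23.4%). The median level of the intronic lncRNAs was 2.50 FPKM and that of their host mRNAs 13.8. For class x the medians were 0.483 and 1.10, and for class o 2.07 and 3.62. Only 4 of the partners carry a gene symbol other than a locus number in the RefSeq gene table. They are CNX3, TSD2, ILA and NUDX19.

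Correlation over the 12 libraries was computed on the log2 scale for the 92 pairs in which both transcripts had a mean of at least 0.5 FPKM. Positive values prevailed, with 66 of the 92 above 0. Pairs that do not overlap were not examined, so this sign is not shown to be particular to partners. Some partners, such as LOC105111002, enter more than once, so the 92 are not separate cases. The median Pearson's r was 0.343 for class o, 0.229 for the intronic and 0.124 for the opposite-strand class. After subtracting group means it was 0.271, 0.159 and 0.175. By permutation with Benjamini-Hochberg adjustment over the 92 pairs, 8 had a positive Pearson's r with an adjusted p under 0.05, 4 of class o, 3 of class x and 1 of class i, and none had a negative one. With Spearman's rho 4 were positive with an adjusted p under 0.05 and none negative, and 3 of the 4 are among these 8. The permutation took the 12 libraries as exchangeable, though La2 was like Ov2 and La3 like Ov3. The p-values of these correlations, here and for the pairs named below, may therefore be too small.

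The pairs named next, outside the rule for named transcripts, were chosen after their values were seen. The strongest was TCONS_00025492 (class o, scaffold NW_011499882.1, 597886 to 599326, minus strand) with LOC105129702. Pearson's r was 0.988 (permutation adjusted p = 9.2e-04) and Spearman's rho 0.951 (permutation adjusted p = 0.00184). It was 0.986 without La2 and Bo1, the libraries farthest from the median of the mRNA, and 0.987 within groups. The lncRNA had 30.3, 32.2 and 8.38 FPKM in La and 2.86, 9.16 and 26.7 in Bo, with the mRNA at 82.4, 100.3 and 26.5 in La and 6.03, 19.2 and 93.1 in Bo. Both varied widely within groups. Because the 2 transcripts share exonic sequence, reads may be divided between them, and its part in this correlation was not tested.

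TCONS_00040035 (class x), opposite LOC105137266, had a Pearson's r of 0.929 (permutation adjusted p = 9.2e-04) and a rho of 0.902 (permutation adjusted p = 0.00598). The r was 0.875 without Li2 and La3 and 0.926 within groups. The libraries keep strand, but how fully this separates the reads of these 2 was not tested. TCONS_00053574 (class o) with LOC105109031 had an r of 0.850 (permutation adjusted p = 0.0187) and a rho of 0.825 (permutation adjusted p = 0.0497), with an r of 0.903 without Li1 and La3 and 0.738 within groups. The remaining 5 pairs had an r between 0.700 and 0.811 and did not pass with rho. Of them TCONS_00030782 (class x) had an r of 0.458 without La3 and Ov3, so that its relation rests on those libraries. TCONS_00036043, called lower in Bo, had an r of 0.343 with its opposite mRNA and -0.558 within groups, and neither measure over the 12 libraries passed (adjusted p = 0.493 and 0.714 by permutation).

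**Figure D5:**
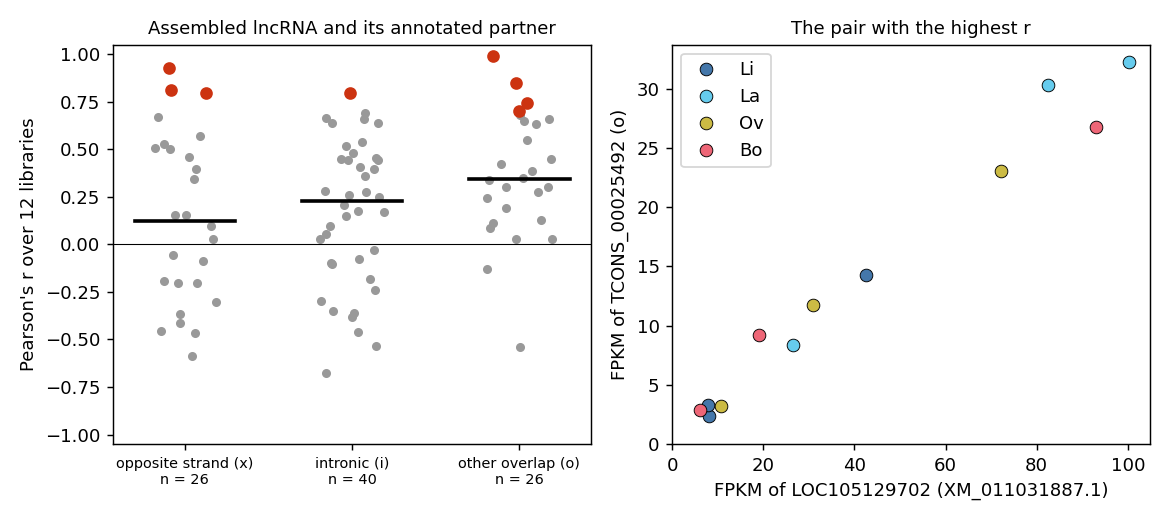
Left, Pearson's r over 12 libraries on the log2(FPKM + 1) scale (y axis) between each assembled lncRNA and its annotated partner, by class (x axis). Red points have an adjusted p under 0.05 and lines are medians, 0.124 for class x, 0.229 for class i and 0.343 for class o. Right, FPKM of TCONS_00025492 (y axis) against that of LOC105129702 (x axis) in the 12 libraries, where r was 0.988 on the log2 scale.

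As a check of the tissue, CA1, a carbonic anhydrase of leaves, had between 22.3 and 79.3 FPKM over the 12 libraries. Its group means fell at every step, with 61.3 (Li), 39.1 (La), 34.5 (Ov) and 28.9 (Bo), and this fall was not tested. KNAT1, a gene of the shoot meristem, had 1.02 to 24.2 FPKM with group means of 5.92 (Li), 6.33 (La), 14.0 (Ov) and 1.53 (Bo), and its part in the levels above was not tested. Other planned markers were not matched by symbol, apart from CESA4 of woody cell walls, whose more abundant transcript had group means of 5.73 (Li), 4.16 (La), 3.04 (Ov) and 8.54 (Bo).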

How the data were processed

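Total RNA of 12 *P. euphratica* leaf samples was sequenced by the authors as strand-specific (dUTP), paired-end libraries after removal of ribosomal RNA. The authors aligned the reads with TopHat2, assembled transcripts with Cufflinks, kept those of at least 200 bases and 2 exons without coding potential, and estimated abundance with Bowtie2 and eXpress on PopEup_1.0. The deposited values are FPKM, and Bowtie2 reported up to 30 alignments per read, so that near-identical transcripts share reads. The read depth behind the FPKM is unknown. The class codes, positions and partner names are the deposited columns, and 0 per-sample columns were left unused in the lncRNA and mRNA tables. The circRNA tables gave positions only, and their RPM were not used.

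The fit was made here on log2(FPKM + 1) of all 1391 lncRNAs with a mean of at least 0.5 FPKM, with limma 3.58.1 in R 4.3.3 (4 group means, variance trend, two-sided tests, Benjamini-Hochberg adjustment), and tested on simulated data. Correlations used 100000 permutations, two-sided, of all 12 libraries without regard to group or number. Labels with the same number were taken to pair La and Ov only, because the deviations from the group means of same-numbered libraries correlated at 0.248, 0.569 and 0.632, whereas in every other pair of groups at least 1 number was at or below 0.1. The members and lists were chosen with earlier results of these data known. Transcripts named are those called, the 10 of smallest p in the F test, the 5 of highest mean, the 5 largest positive and negative Bo/Li changes without overlap, the 5 steadiest, the 5 most confined to 1 library, and those at 0 throughout or seen in 1 group only. Symbols came from a RefSeq gene table of PopEup_1.0, and no genome sequence was used. Alternatives tried are listed in the closing section.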

Additional observations from a re-analysis of the deposited data

How the results depend on the processing

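For Bo/Li the number of assembled lncRNAs called was 3 to 6 with a pseudocount of 0.1, a filter of 0.1 FPKM, upper quartile scaling, summed loci or the replicate block over all 4 groups (4 calls). It was 0 with no filter on low values, 0 in a fit of only the 2 groups, 14 with the replicate block within La and Ov, and 83 at an unadjusted p. Leaving out 1 library gave 0 to 11 calls. Over all lncRNAs the Bo/Li calls were 23 with the pseudocount of 0.1, 10 with the filter of 0.1 FPKM and 10 with upper quartile scaling. They were 15 with summed loci, 20 with the block over all groups, 9 with no filter and 5 in the 2-group fit. For La/Li, where none was called, the replicate block over all groups gave 1 (2 over all lncRNAs) and summed loci 1 (3 over all). The unadjusted p gave 23 and leaving out 1 library 0 to 4. For Ov/Li the blocks gave 1 (all groups, 3 over all lncRNAs) and 6 (La and Ov, 32 over all). The unadjusted p gave 42 and leaving out 1 library 0 to 5. For Bo/La both blocks gave 1 (3 with all groups and 5 with La and Ov over all lncRNAs). The unadjusted p gave 42 and leaving out 1 library 0 to 7. For Bo/Ov the block over all groups gave 1 (4 over all lncRNAs), the unadjusted p 39 and leaving out 1 library 0 to 5. Ov/La had 12 at the unadjusted p and 0 in every other setting tried. The F test called 0 with the pseudocount of 0.1, 0 with no filter, 0 with the filter of 0.1 FPKM, 4 with the replicate block within La and Ov, 59 at the unadjusted p and 0 to 6 without 1 library. CLI members numbered 0 with no filter, 0 in the 2-group fit, 6 at the unadjusted p and 0 to 2 without 1 library. OLI members numbered 3 with the pseudocount of 0.1, 0 with no filter, 0 in the 2-group fit, 5 with the replicate block within La and Ov, 31 at the unadjusted p and 0 to 4 without 1 library. The median number detected per library was 346 at a floor of 0.1 FPKM and 367 at 0.01 FPKM. The summed loci were chosen after seeing the data. For the 15 transcripts named as called, by the smallest p in the F test or by the largest Bo/Li change, the direction for Bo/Li did not change in any setting tried. Only the pseudocount, the upper quartile scaling and leaving out a Bo or Li library can move that estimate. Where the Bo and Li values do not overlap, leaving out 1 library cannot reverse it either. The unchanged direction is therefore little evidence of stability. The other named transcripts were not refitted. More tests enter with no filter and fewer samples in the 2-group fit. The cause of these shifts and of the others was not tested. Unknown read depth and 3 libraries per group limit what can be told of low transcripts.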
